A study of Mus musculus with 28 samples.

Results

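The genes described here are 36 replication and mitosis genes of the mouse, chosen as a list by name, out of 22232 protein-coding genes. For each gene, called regions of 9 histone marks were measured over the gene with 5 kb on each side, and sites of the vitamin D receptor (VDR) and the retinoid X receptor (RXR) were counted within 50 kb. The cells were IDG-SW3, a mouse bone cell line that was expanded at 33 °C with 50 U/mL interferon gamma and then moved to 37 °C in osteogenic medium, with ascorbic acid and β-glycerol phosphate, without it. As background, the line carries a heat-sensitive large T antigen under an interferon-responsive promoter, which drives its growth, and a reporter in which the Dmp1 promoter drives GFP. It is 1 line, so no value speaks for other clones or for bone tissue.

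Histone marks were profiled at day 3 and at day 35 of differentiation, in cells for which the labels name no treatment, with 1 library for each mark and day. VDR and RXR were profiled at day 35 alone, after 3 h with vehicle or 100 nM 1,25(OH)2D3 (1,25D3, the hormonal form of vitamin D), and each arm has 2 libraries described as biological replicates. Of 28 samples, 26 had a list of called regions, and the 2 input samples were not analysed here. Both days followed the change of temperature and medium, and the sources used here do not say whether days count from plating or from that change. The day and the time since the change therefore cannot be told apart. Histone lists held 9360 to 100123 regions, none narrower than 500 bp, and factor lists 291 to 10333 peaks. No source used here gives the read depth. With 1 library per mark and day no difference between days has a replicate check, so all day comparisons are descriptions of these libraries, without a test, and lost or kept below refers to a call in these lists.

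Cells copy their DNA after the MCM helicase has been loaded at origins by Cdc6 and Cdt1, and they divide when Cdk1, bound to A- and B-type cyclins, switches on the mitotic kinases. Promoters of S-phase genes often carry E2F sites, and those of mitotic genes a cell cycle homology region (CHR) near CCAAT boxes bound by NF-Y. In cells that leave the cycle, the DREAM complex and the Rb family repress both groups. Mature osteocytes do not divide. Among the marks, H3K4me3, H3K9Ac and H3K27Ac lie at active promoters, H3K4me1 and H3K27Ac at enhancers, H3K36me3 and H4K20me1 along transcribed genes, and H3K9me3 in silent chromatin.

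The promoter letters of 7 genes are shown because these genes span the range of the chromatin values below, from the largest losses to a gain. Their promoters also give examples of CHR, CCAAT and E2F words, of which Cdk1 and Mki67 hold every kind. Each line is the 200 bases before the transcription start site (TSS), 5′ to 3′ along the gene, from the NCBIM37 (mm9) genome. The stretches lie for Top2a at chr11:98885504-98885703, for Cdk1 at chr10:68815687-68815886, for Mki67 at chr7:142908063-142908262 and for Mcm6 at chr1:130256234-130256433, all on the minus strand. Those on the plus strand lie for Kif11 at chr19:37450693-37450892, for Mcm5 at chr8:77633227-77633426 and for Rrm1 at chr7:109590009-109590208. Capitals mark exact matches, on either strand, to the CHR word TTTGAA, to CCAAT, and to the E2F words TTCCCGC or TTCGCGC or TTGCCGC or TTGGCGC. Words can overlap, and an E2F word read on the other strand can share its last letters with CCAAT.
Top2a: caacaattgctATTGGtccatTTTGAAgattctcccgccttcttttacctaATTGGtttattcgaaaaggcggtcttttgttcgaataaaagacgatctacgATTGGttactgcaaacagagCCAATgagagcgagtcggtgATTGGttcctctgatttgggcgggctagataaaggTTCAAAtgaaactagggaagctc
Cdk1: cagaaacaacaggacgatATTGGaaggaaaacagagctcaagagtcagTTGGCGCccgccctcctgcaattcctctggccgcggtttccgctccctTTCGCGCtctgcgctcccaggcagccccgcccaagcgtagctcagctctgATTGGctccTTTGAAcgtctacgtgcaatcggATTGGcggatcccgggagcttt
Kif11: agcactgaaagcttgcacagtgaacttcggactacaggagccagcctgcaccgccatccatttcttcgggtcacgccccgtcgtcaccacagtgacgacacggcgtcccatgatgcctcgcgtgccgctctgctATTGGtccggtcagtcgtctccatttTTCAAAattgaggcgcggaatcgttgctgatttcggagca
Mki67: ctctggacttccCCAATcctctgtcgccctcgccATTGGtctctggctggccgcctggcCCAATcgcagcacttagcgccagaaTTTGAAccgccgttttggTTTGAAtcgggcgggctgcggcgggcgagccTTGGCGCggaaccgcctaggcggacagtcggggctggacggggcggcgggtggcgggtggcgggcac
Mcm5: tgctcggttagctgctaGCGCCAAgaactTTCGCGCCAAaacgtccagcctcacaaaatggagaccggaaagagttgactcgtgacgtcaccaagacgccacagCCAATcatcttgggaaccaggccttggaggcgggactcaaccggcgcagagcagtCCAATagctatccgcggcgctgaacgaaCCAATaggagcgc
Mcm6: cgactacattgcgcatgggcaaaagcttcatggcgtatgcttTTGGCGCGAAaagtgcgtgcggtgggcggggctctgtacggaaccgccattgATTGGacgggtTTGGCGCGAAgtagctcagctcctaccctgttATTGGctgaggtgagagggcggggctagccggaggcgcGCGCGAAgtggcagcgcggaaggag
Rrm1: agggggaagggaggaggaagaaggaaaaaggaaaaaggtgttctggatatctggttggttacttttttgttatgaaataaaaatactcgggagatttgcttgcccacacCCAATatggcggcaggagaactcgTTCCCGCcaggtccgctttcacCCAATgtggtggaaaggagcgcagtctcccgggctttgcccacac

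Between 250 bases before and 50 after the TSS, the CHR word stood in 15 of the 36 promoters (15.8% of all protein-coding promoters), CCAAT in 27 (37.7%) and an E2F word in 13 (11.9%). All 15 genes with the CHR word also held CCAAT, a pair found in 6.42% of all promoters. The CHR and E2F words differed in frequency between the role groups, with exceptions. The CHR word stood in 6 of 8 spindle, kinetochore and chromosome genes and 5 of 8 mitotic kinase and checkpoint genes, but in 1 of 8 licensing and helicase genes and 0 of 4 fork and nucleotide genes. E2F words stood in 6 of 8 licensing genes, 2 of 4 fork and nucleotide genes, 1 of 8 spindle genes and 0 of 8 kinase and checkpoint genes. The cyclin, Cdk1 and factor genes were mixed, with the CHR word in 3 of 8 and an E2F word in 4 of 8. Cdk1, Mki67 and Foxm1 held both words. Top2a held 6 CCAAT boxes and a pair of CHR words, and Mcm6 held 5 E2F words in the same window. A match is a description of the letters and no measure of binding. E2F or DREAM binding was not measured in this series.

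Called active chromatin covered less of most of these genes at day 35 than at day 3. A gene is called lower or higher here when the covered share of its window, the gene with 5 kb on each side, differed by over 10 percentage points. H4K20me1 was lower at 28 of 36 genes, against 6.18% of all genes (14.7% of genes that had over 10% coverage at day 3). H3K27Ac was lower at 27, against 5.82% (11% of those with over 10% at day 3), and H3K36me3 at 24, against 9.91% (19.5%). Few members went the other way. H3K27Ac was higher at 1 of 36, Rrm1, where 17.8% of all genes were higher, and H4K20me1 and H3K36me3 were higher at 0 of 36, where 17.8% and 10.7% of all genes were. With 20 kb flanks in place of 5 kb, H3K27Ac was lower at 15 of 36 (3.25% of all genes), H3K36me3 at 18 (7.4%) and H4K20me1 at 24 (3.85%). The H3K27Ac difference then came within the threshold at 11 genes, which were Pcna, Rrm2, Tyms, Cdc6, Cdt1, Ccne1, Aurka, Plk1, Mad2l1, Kif23 and Cenpa.

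The other marks split by kind. H4K5Ac was lower at 21 of 36 genes, against 6.65% of all genes (12% of those with over 10% at day 3), and higher at 1, Rrm1, against 13.4%. H3K4me1 was lower at 20, against 9.94%. H3K9Ac and H3K4me3, which are known as marks of the region near the TSS, were each lower at 9, against 3.64% and 2.14%. Among members with over 10% at day 3, H3K4me1 was lower at 20 of 34, H3K9Ac at 9 of 31 and H3K4me3 at 9 of 18. Among all genes with over 10% at day 3, the counts were 2209 of 14078, 810 of 9514 and 476 of 2382. H3K9Ac was higher at 1 gene, Cdc6, against 7.1% of all genes. H3K4me2 was lower at 3 (Rrm2, Ccne2 and Cdc20), against 0.558%, and H3K9me3 at 0, against 4.18%. Of all genes with over 10% at day 3, 124 of 8135 were lower in H3K4me2. Silent chromatin marked by H3K9me3 was called at 0 of 36 promoters at either day, where 11.8% and 8.52% of all promoters had it. It touched 3 windows at day 3 and 1 at day 35, against 36.2% and 26.1% of all windows. The starts of all 36 genes thus lay outside called H3K9me3 at both days.

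The median covered share of a window went from 51.9% to 19.9% for H3K27Ac, from 39.4% to 4.95% for H4K20me1, from 72.1% to 46.3% for H3K36me3 and from 41.8% to 21.5% for H4K5Ac. The median gene of the genome differed by 0 points in each of these marks. The whole lists did not shrink for these marks, apart from a small decrease for H3K36me3: the H3K27Ac list spanned 226 Mb of the genome on day 3 against 270 Mb on day 35, H4K20me1 216 and 245 Mb, H4K5Ac 297 and 335 Mb and H3K36me3 310 and 300 Mb. In a mixed culture, fewer cells with a mark and less of the mark in each cell cannot be told apart.

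**Figure D1:**
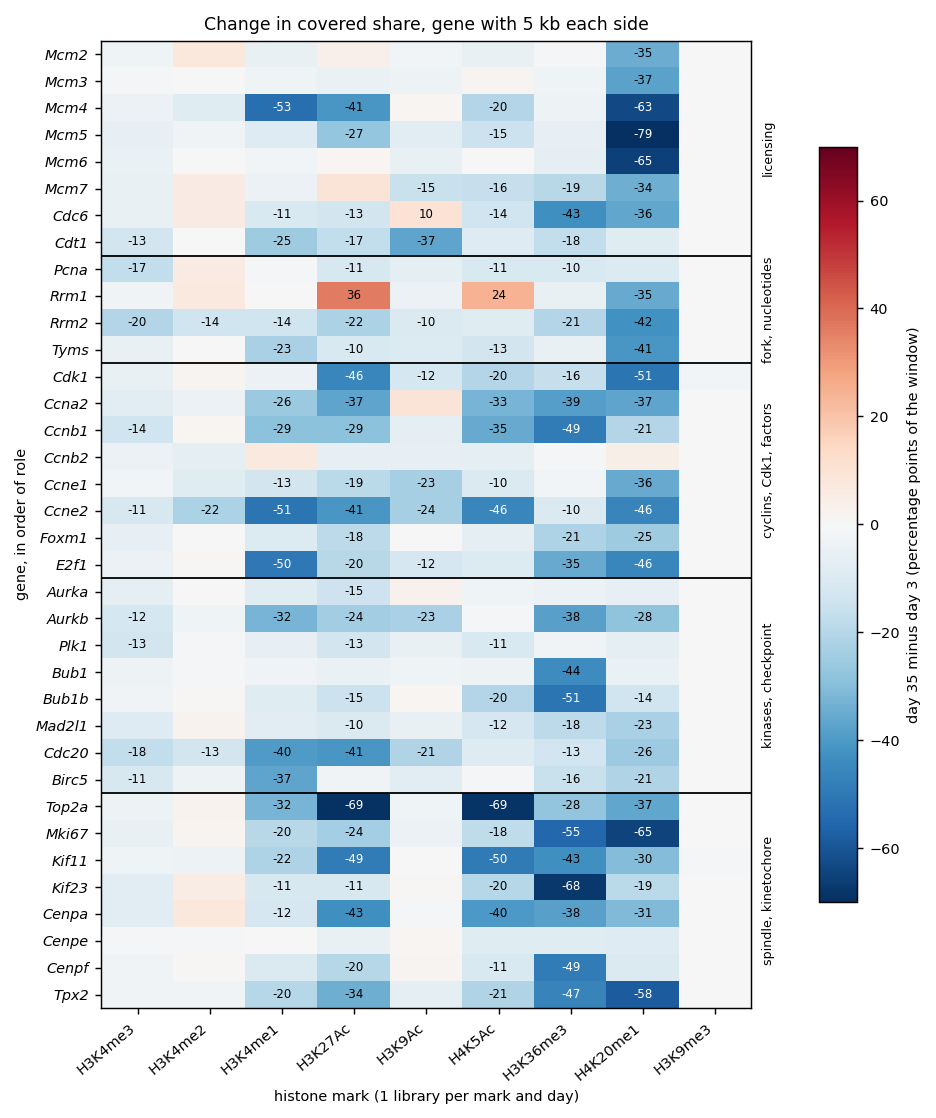
Difference in covered share, day 35 minus day 3 in percentage points of the gene with 5 kb each side, for 36 genes (rows, in order of role) and 9 histone marks (columns), with 1 library per mark and day. Differences beyond 10 points are written in the cells: blue cells fill the H3K27Ac, H3K36me3 and H4K20me1 columns, and Rrm1 has the only red H3K27Ac cell with a written value (36).

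Of the 8 marks other than H3K9me3, 5 were lower at 12 of the genes, which was the most common number. Ccne2 was lower in all 8, and Rrm2 and Cdc20 in 7. Ccnb2 and Cenpe were lower in 0, and Aurka, Bub1, Mcm2, Mcm3, Mcm6 and Rrm1 in 1. Ccnb2 lay near the threshold in H3K27Ac, at -5.72 points, and at -12.8 points with the higher-scoring 50% of each list or with lists of equal covered length. H3K27Ac and H4K20me1 were both lower at 22 genes, H3K27Ac and H3K36me3 at 21, and H3K36me3 and H4K20me1 at 20. With 27, 28 and 24 of 36 genes lower in H3K27Ac, H4K20me1 and H3K36me3, large overlaps follow from the single counts alone. These pairs were not counted over all genes, so they do not show that the marks went together. H3K9Ac and H4K5Ac were both lower by over 10 points at 4 genes. A looser rule asked for H3K27Ac lower by over 10 points, and H3K9Ac and H4K5Ac lower by any amount. It held at 18 of 36 genes, against 4.11% of all genes. The same rule in the upward direction held at 0 of 36, against 11.5% of all genes.

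Over the window, most licensing and helicase genes kept H3K36me3 and were lower in H4K20me1. Of the 8, 3 were lower in the first mark and 7 in the second. Their promoters did not keep H3K36me3: its share there was lower at 7 of 8, with medians of 40.1% and 14.7%. Promoter H3K36me3 was lower at 28 of all 36 members, and at 2088 of the 5077 genes with over 10% at day 3. H3K36me3 covered 94.4% of the Mcm6 window at day 3 and 87.8% at day 35, 78.6% and 73.2% at Mcm5, and 73.6% and 70.8% at Mcm3. H4K20me1 over the same windows went from 80.6% to 15.3% at Mcm6, from 80.6% to 1.73% at Mcm5 and from 48.3% to 11% at Mcm3. The 6 MCM genes encode the subunits of the replicative helicase ring, and all 6 were lower in H4K20me1 by over 10 points. Mcm4 went furthest in H3K27Ac, from 55.4% to 14.7%, and Mcm5 from 34.9% to 7.76%. H3K27Ac differed little at Mcm2 (51.5% and 54.9%), Mcm6 (16.7% and 17.9%) and Mcm7 (86.2% and 95.1%). The Mcm7 window holds Cops6 and Ap4m1, which overlap the gene, and Mcm4 shares its start region with Prkdc, 466 bp away on the other strand, so their values are not those of a single gene.

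The helicase loaders differed from each other. Cdc6, which loads the helicase with Cdt1, went from 76.1% to 33.3% in H3K36me3 and from 38.4% to 1.91% in H4K20me1. Its H3K9Ac went the other way, from 47% to 57.1%, in a window that also reaches Wipf2 and Rara. Cdt1 went from 91.9% to 55.1% in H3K9Ac and from 58.6% to 41.1% in H3K36me3, and kept H4K20me1 at 72.6% and 64.4%. The H3K36me3 share of its body was 100% at both days. Cdc6 was the 1 licensing gene of 8 whose gene body, beyond 2 kb from the TSS, was lower in H3K36me3.

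Among fork and nucleotide genes, Rrm1 was the exception of the whole list. Rrm1, the large subunit of ribonucleotide reductase, went from 52.2% to 88.5% in H3K27Ac and from 43.8% to 68.1% in H4K5Ac, while its H4K20me1 went from 43.2% to 7.77%. Its H3K27Ac over the gene body went from 43.1% to 91.5%, and Stim1 lies in the same window. The small subunit Rrm2 went from 65% to 43.1% in H3K27Ac, from 60.7% to 18.3% in H4K20me1 and from 20.4% to 0% in H3K4me3. The 2 subunits of the enzyme thus differed in direction for H3K27Ac and not for H4K20me1. Tyms, thymidylate synthase, went from 45.4% to 4.53% in H4K20me1 and from 19.3% to 8.84% in H3K27Ac. Pcna, the sliding clamp, had the smallest H4K20me1 difference of the 4, from 53.8% to 44.3%, and went from 84.8% to 73.3% in H3K27Ac. With 20 kb flanks its H3K27Ac difference was 3.66 points in the other direction.

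Of the 8 cyclin, Cdk1 and transcription factor genes, 7 were lower in H3K27Ac, 7 in H4K20me1 and 6 in H3K36me3. Cdk1, the kinase of mitotic entry, went from 83.9% to 38.1% in H3K27Ac, from 62.9% to 12% in H4K20me1 and from 72.4% to 56.3% in H3K36me3. Its region at the TSS was 22548 bp wide at day 3 and 6961 bp at day 35 for H3K27Ac. Ccnb1, its B-type cyclin, went from 49.1% to 0% in H3K36me3 and from 20.7% to 0% in H4K20me1, so that neither mark was called over its window at day 35. Ccna2, cyclin A2, went from 100% to 61.2% in H3K36me3 and from 53.4% to 16.5% in H3K27Ac, and Exosc9 overlaps it. The B-type cyclin Ccnb2 stood apart, with H3K36me3 at 68.5% and 67.5% and H4K20me1 at 19% and 23.4%. Its promoter did differ: H3K27Ac there went from 74.6% to 12.5% and H3K4me3 from 23% to 0%.

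The E-type cyclins, which drive entry into S phase, and the transcription factors were lower too. Ccne2 went from 83.2% to 42.4% in H3K27Ac, from 64.7% to 18.8% in H4K5Ac and from 93% to 46.6% in H4K20me1, with Ints8 overlapping the gene. Ccne1 went from 35.5% to 0% in H4K20me1 and stayed near its level in H3K36me3 (52.9% and 51.1%). E2f1 went from 67.7% to 32.4% in H3K36me3 and from 73% to 27.3% in H4K20me1. Foxm1, which activates mitotic genes, went from 52.5% to 34.2% in H3K27Ac and from 66.6% to 45.2% in H3K36me3, beside a gene that starts 99 bp away on the other strand. With 20 kb flanks H3K27Ac at Foxm1 was 12.3 points higher at day 35, and with the higher-scoring 50% of each list it differed by -6.55 points, within the threshold.

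Among the 5 role groups, mitotic kinase and checkpoint genes had the lowest day 3 window medians of H3K27Ac (32.1%), H4K20me1 (22.7%) and H3K36me3 (54.3%). Over the body alone, their day 3 H3K36me3 median was 100%, as in every role group. Their body medians of H3K27Ac (12.4%) and H4K20me1 (32%) were the lowest there too, while their promoter median of H3K27Ac was 98.4%. Of the 8 windows, 6 were lower in H3K27Ac and 6 in H3K36me3. Aurkb, the kinase of the chromosomal passenger complex, went from 43.6% to 5.59% in H3K36me3, from 27.9% to 0% in H4K20me1 and from 46.1% to 21.9% in H3K27Ac. Bub1b went from 84.5% to 33.6% and Bub1 from 71.8% to 27.7% in H3K36me3; both encode spindle checkpoint proteins. Bub1 had little H3K27Ac to lose, 7.5% and 2.88% of its window. Cdc20, the activator of the anaphase-promoting complex, went from 74.4% to 33.5% in H3K27Ac, over a window that Elovl1 overlaps. The windows of Plk1 and Aurka, the polo-like and Aurora A kinases, differed little in H3K36me3, at 49.7% and 47.4% and at 71% and 67.2%. Over the gene body beyond 2 kb from the TSS, Aurka did differ, from 100% to 77.1%, and Plk1 went from 100% to 93.8%. The Aurka window also holds Cstf1, which starts 175 bp away.

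Birc5, survivin, had the smallest H3K27Ac difference of this group (46.2% and 43.9%), with opposite shifts in its parts. Its promoter share went from 100% to 61.3% while the share of its body went from 6.24% to 38%, in a window that also holds Cldn27. With lists of equal covered length its window difference was -13.1 points, past the threshold. Mad2l1, a checkpoint protein, went from 59% to 40.6% in H3K36me3 and from 29.8% to 6.97% in H4K20me1.

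Spindle, kinetochore and chromosome genes held the largest differences of the list in summed acetylation (Top2a) and in H3K36me3 (Kif23). Top2a, the topoisomerase that untangles sister DNA, went from 77.3% to 8.18% in H3K27Ac, from 77.3% to 8.62% in H4K5Ac and from 36.6% to 0% in H4K20me1. At day 3, 1 H3K27Ac region of 14.9 kb covered the Top2a start and a second of 17 kb the rest of the gene, and at day 35 a region of 1.93 kb remained at the start and another of 1.44 kb far into the gene. Mki67, the Ki-67 antigen, went from 79.6% to 25% in H3K36me3, from 66.2% to 1.37% in H4K20me1 and from 28.9% to 5.29% in H3K27Ac. Both genes thus kept a short H3K27Ac region at the promoter with little or none along the gene.

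Kif11, the kinesin that separates spindle poles, went from 58.4% to 9.55% in H3K27Ac and from 71.7% to 22% in H4K5Ac, but stayed at 10.8% and 11.3% in H3K9Ac. Kif23, a kinesin of the central spindle, went furthest in H3K36me3, from 79.8% to 12.2%. Tpx2, a spindle assembly factor, went from 58.2% to 0% in H4K20me1 and from 89.1% to 42% in H3K36me3. Cenpa, the centromeric H3 variant, went from 65.4% to 22.6% in H3K27Ac and from 57.8% to 20% in H3K36me3. Cenpf, of the outer kinetochore, went from 81.7% to 32.5% in H3K36me3 and was the 1 gene of 36 with no H3K27Ac call at its TSS at day 35. Its H3K27Ac window went from 21.8% to 1.74%, but differed by -6.29 points, within the threshold, with the higher-scoring 50% of each list. Cenpe, a kinetochore motor and at 61 kb the longest gene of the list, kept H3K36me3 at 82.3% and 73.7%.

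**Figure D2:**
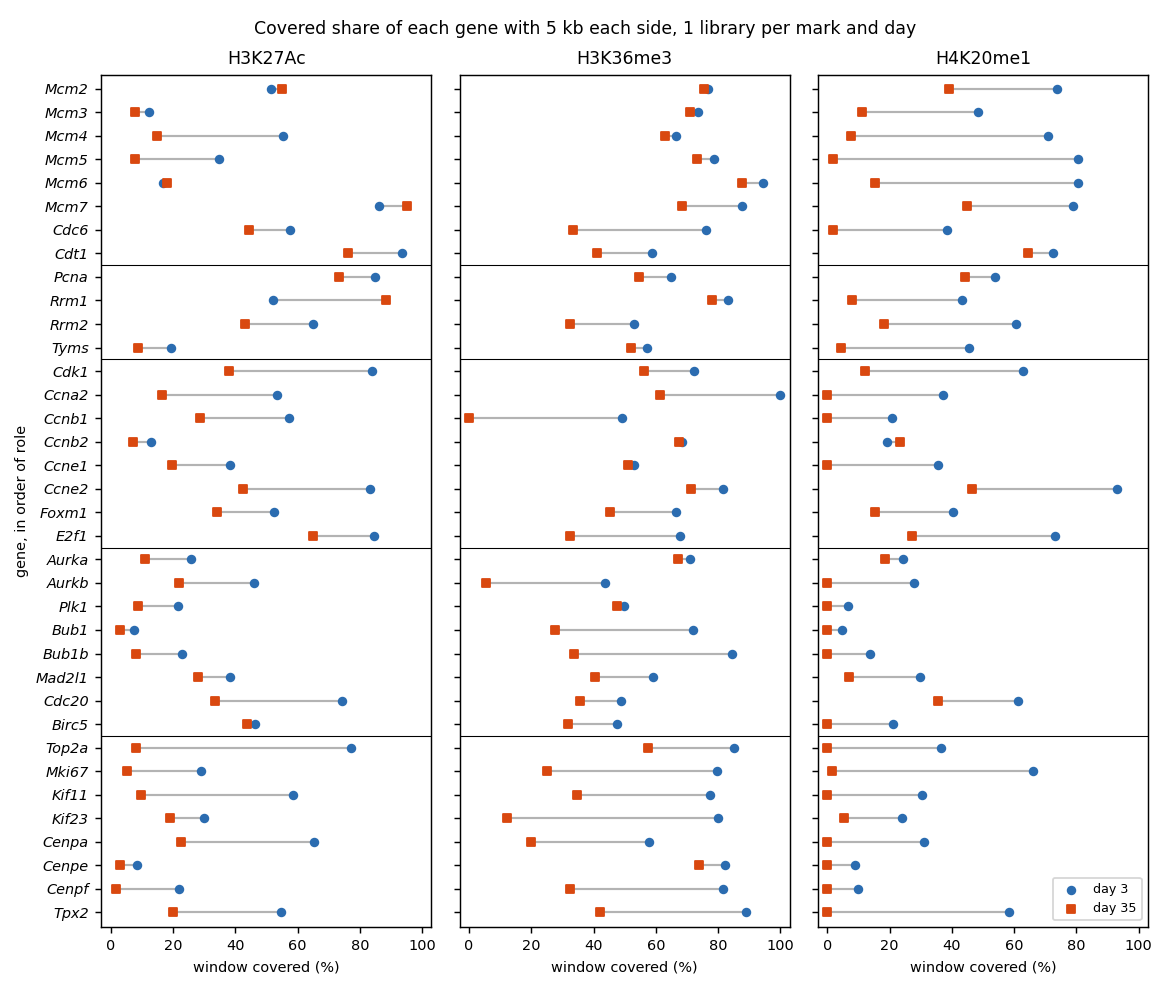
Covered share of each of the 36 genes with 5 kb each side (percent, x axis) at day 3 (circles) and day 35 (squares) for H3K27Ac, H3K36me3 and H4K20me1, 1 library per mark and day, with black lines between the role groups. In H3K36me3 the pairs lie close for most MCM genes (Mcm6 at 94.4% and 87.8%) and far apart for most spindle genes (Kif23 at 79.8% and 12.2%).

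The marks that reach beyond the promoter did not pick out the same genes. In H4K5Ac the widest gaps after Top2a and Kif11 were at Ccne2 (64.7% to 18.8%), Cenpa (68.1% to 27.9%), Ccnb1 (56.4% to 20.9%) and Ccna2 (44.2% to 11.6%). Cdk1 kept more of H4K5Ac (83.9% to 63.3%) than of H3K27Ac. Aurkb held H4K5Ac at 41.3% and 40% while its H3K9Ac went from 44.2% to 21.4%. In H3K4me1, Mcm4 came first (70% to 17.4%), before Ccne2 (78.3% to 27.3%), E2f1 (77.3% to 27.5%), Cdc20 (74.3% to 34.7%) and Birc5 (65.3% to 28.1%). Pcna held H3K4me1 at 69.5% and 68%, and Rrm1 at 49% and 48.8%, so the wider H3K27Ac of Rrm1 came without wider H3K4me1. In H3K9Ac, Ccne1 went from 40.9% to 17.6% and Mcm7 from 84% to 68.5%.

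H3K36me3 over the gene body, the part of the gene beyond 2 kb from the TSS, differed between the role groups at day 35. At day 3 all 36 bodies were covered over 90%, against 28.1% of all gene bodies. At day 35 this held for 17, against 24.9%: for 7 of 8 licensing genes, 4 of 4 fork and nucleotide genes, 5 of 8 cyclin, Cdk1 and factor genes, 1 of 8 kinase and checkpoint genes (Plk1) and 0 of 8 spindle genes. The body was lower by over 10 points at 18 of 36, against 11.1% of all genes with a body (20.5% of those with over 10% at day 3). The median body share of the spindle group went from 100% to 43.3% and that of the licensing group was 100% at both days. At 10 genes it was under 50% at day 35, against 54.5% of all gene bodies, with Kif23 at 11.2%, Mki67 at 26.9%, and Aurkb and Ccnb1 at 0%. Among genes that are not members, the body was lower at 20 of 37 other replication genes (median difference -11.3 points) and 36 of 50 other mitosis genes (-35 points), so other replication genes were lower more often than the licensing members, without a test.

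H4K20me1 was lower across the roles. Its body share was lower at 31 of 36 genes, in every role group, against 5.66% of all genes. Of all genes with over 10% at day 3, 1049 of 7489 were lower. The body share was 0% at 1 gene at day 3 (Ccnb2) and at 21 at day 35, against 46.5% and 48.5% of all gene bodies. At day 35 the members were thus near the share of all genes. The licensing group started highest, with a median of 100%, and went to 11.6%. H3K27Ac over the body was lower at 22, against 6.11%, and higher at Rrm1 and Birc5. Of all genes with over 10% at day 3, 1131 of 7412 were lower in it.

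At the promoter, 2 kb on each side of the TSS, some marks stayed in place and others covered less. H3K4me2 had a median of 77.9% at day 3 and 76.8% at day 35. It was lower by over 10 points at 6 genes, against 1.57% of all genes and 350 of the 13066 with over 10% at day 3. It was higher at 1 of 36, against 5617 of all 22232 genes, and its whole list spanned 87.6 Mb at day 3 and 130 Mb at day 35. The H3K4me2 region at the start was narrower at 22 of 36 members. Of all 12038 genes with one at both days, 10465 had a wider region at day 35. H3K4me2 and H3K9Ac covered all 36 start sites at both days, H3K4me1 and H3K27Ac 36 and then 35, and H4K5Ac 36 and then 30. Over all start sites, H3K4me2 covered 54.6% at day 3 and 58.4% at day 35, and H3K9Ac 53.6% and 53.8%. H3K4me1 covered 58% and 57.3%, H3K27Ac 54.4% and 52.7%, and H4K5Ac 53.4% and 54.6%. The 6 start sites without H4K5Ac at day 35 were those of Cdc6, Top2a, Ccnb1, Bub1, Kif23 and Cenpf. H3K27Ac promoter coverage was lower at 23 members, of which 15 were kinase, checkpoint or spindle genes. It was lower at 16.5% of all genes, and at 3667 of the 13061 genes with over 10% at day 3. The H3K27Ac region at the start was narrower at 30 of the 35 genes that had one at both days, against 54.7% of all such genes. Its median width was 8537 bp at day 3 and 2712 bp at day 35, and 4683 and 4763 bp over all genes. It was wider at Mcm2, Mcm7, Pcna, Rrm1 and Birc5.

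H3K4me3 differed most at the promoter. Its promoter share was lower by over 10 points at 33 of 36 genes, against 27% of all genes, and against 58.8% of genes that had over 10% at day 3. The median went from 52.8% to 17.6%. At the base of the TSS itself, 34 genes had an H3K4me3 region at day 3 and 12 at day 35, so that 22 lost it, against 30.8% of all start sites that had one. The mark covered less of the whole genome as well, 17.6 Mb at day 3 and 13 Mb at day 35. With the day 3 list cut by score to the length of the day 35 list, 22 start sites of the members and 21.3% of all start sites lost it.

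Start sites that kept H3K4me3 were counted by role. It was called at the TSS on both days at 7 of 8 licensing genes, 2 of 4 fork genes (Rrm1 and Tyms) and 3 of 8 spindle genes (Kif11, Cenpe and Tpx2). It was kept at 0 of 8 kinase and checkpoint genes and at 0 of the 6 cyclin, Cdk1 and factor genes that had it at day 3. These counts are for the single base of the TSS. Anywhere in the promoter, H3K4me3 was still called at day 35 at 7 of 8 licensing, 3 of 4 fork, 7 of 8 cyclin, Cdk1 and factor, 3 of 8 kinase and checkpoint and 6 of 8 spindle genes. The cyclin group thus differed from the licensing group at the TSS base and not in the promoter. With the higher-scoring 50% of each list, 3 of 36 start sites kept the mark (Mcm4, Mcm7 and Cenpe). At 30 it was lost, against 35% of all start sites that had one. The 7 licensing genes thus did not hold under that choice. The promoter share was 0% at day 35 at 10 genes, against 59.1% of all promoters, which were Rrm2, Cdc6, Ccnb2, Aurkb, Plk1, Bub1, Bub1b, Cdc20, Kif23 and Cenpf. Plk1 had 64.8% at day 3 and Rrm2 70.2%. Of the 22 genes that lost the TSS base, 12 still had a region in the promoter, which were Pcna, Top2a, Mki67, Cdk1, Ccna2, Ccnb1, Ccne2, Aurka, Mad2l1, Cenpa, Birc5 and Foxm1. At Top2a and Mki67 it lay just inside the gene, 19 and 138 bp from the TSS. The Top2a region of 0.5 kb is as narrow as any region in the histone lists.

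**Figure D3:**
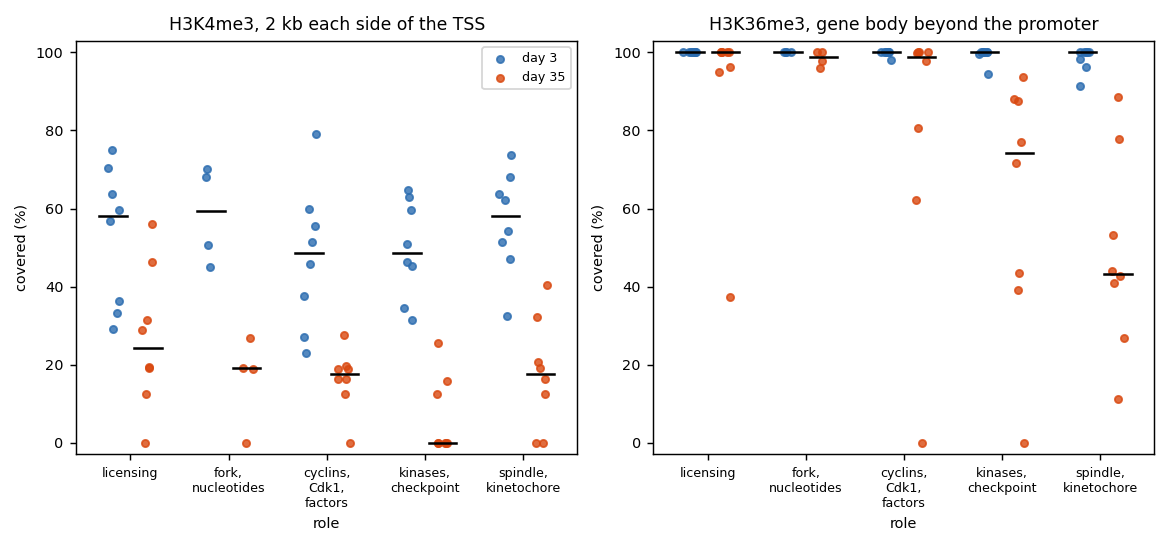
Covered share (percent) of the promoter by H3K4me3 (left) and of the gene body beyond it by H3K36me3 (right) for the 5 role groups, where each point is a gene, the black bars are group medians and colour gives the day. All bodies start over 90% at day 3, and at day 35 the licensing median is 100% and the spindle median 43.3%.

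The same counts were made by promoter word. Of the 15 genes with the CHR word and CCAAT, all had H3K4me3 at the TSS at day 3 and 2 at both days, Mcm2 and Kif11. Of the 10 with an E2F word and no CHR word, 9 had it at day 3 and 6 at both days. Of the 11 with neither, 10 had it at day 3 and 4 at both days. The higher-scoring 50% of each list left 3 of all 36, as above. H3K36me3 windows were lower at 11 of the 15, 5 of the 10 and 8 of the 11, with medians of -27.5, -12.1 and -15.5 points. H4K20me1 was lower at 11, 9 and 8. The classes overlap in large part with the roles, so the word and the role cannot be told apart.

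By distance from the TSS, H3K27Ac covered 35 of 36 genes at 2 kb into the gene at day 3 and 13 at day 35. In all genes the share at that distance was 32.8% and 30.3%. At 1 kb inside, H3K36me3 covered 19 genes at day 3 and 1 at day 35, and at 5 kb 35 and 26. Its near edge thus lay further into the gene at day 35. In all genes H3K36me3 covered 8.18% and 5.42% at 1 kb, and 34.1% and 32.1% at 5 kb. Those shares were lower at day 35 too, and the 1 gene left at 1 kb (2.78%) was near the share of all genes. H4K20me1 covered 35 genes at 2 kb and 17 at 10 kb at day 3, and 10 and 1 at day 35. In all genes H4K20me1 covered 35.5% and 38.1% at 2 kb, and 22.3% and 26.6% at 10 kb.

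**Figure D4:**
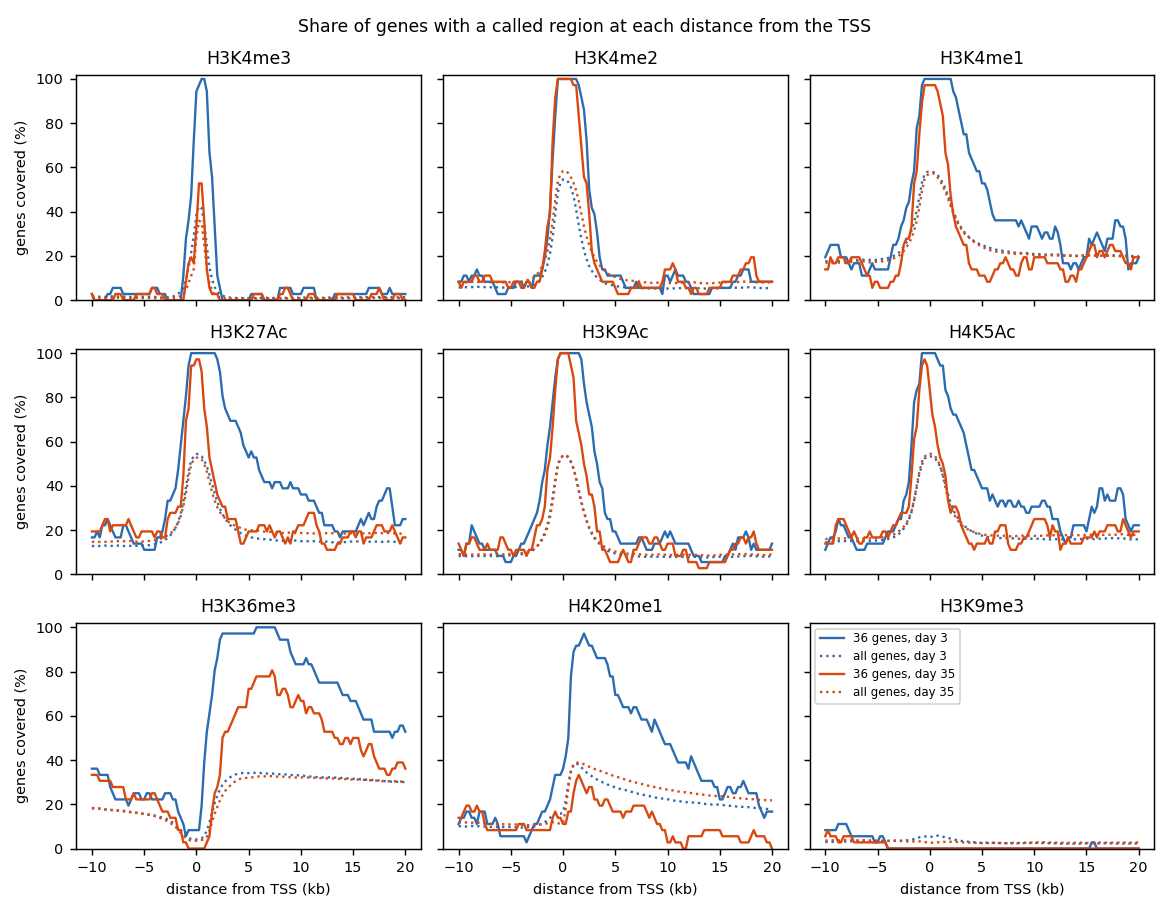
Share of genes with a called region at each distance from the TSS (kb, negative is upstream), for the 36 genes (solid) and all protein-coding genes (dotted) at day 3 and day 35, 1 panel per mark. The solid H3K27Ac line at 2 kb drops from 97.2% at day 3 to 36.1% at day 35, while the H3K4me2 peak at the TSS stays at 100% and H3K9me3 is at 0% around the TSS.

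**Figure D5:**
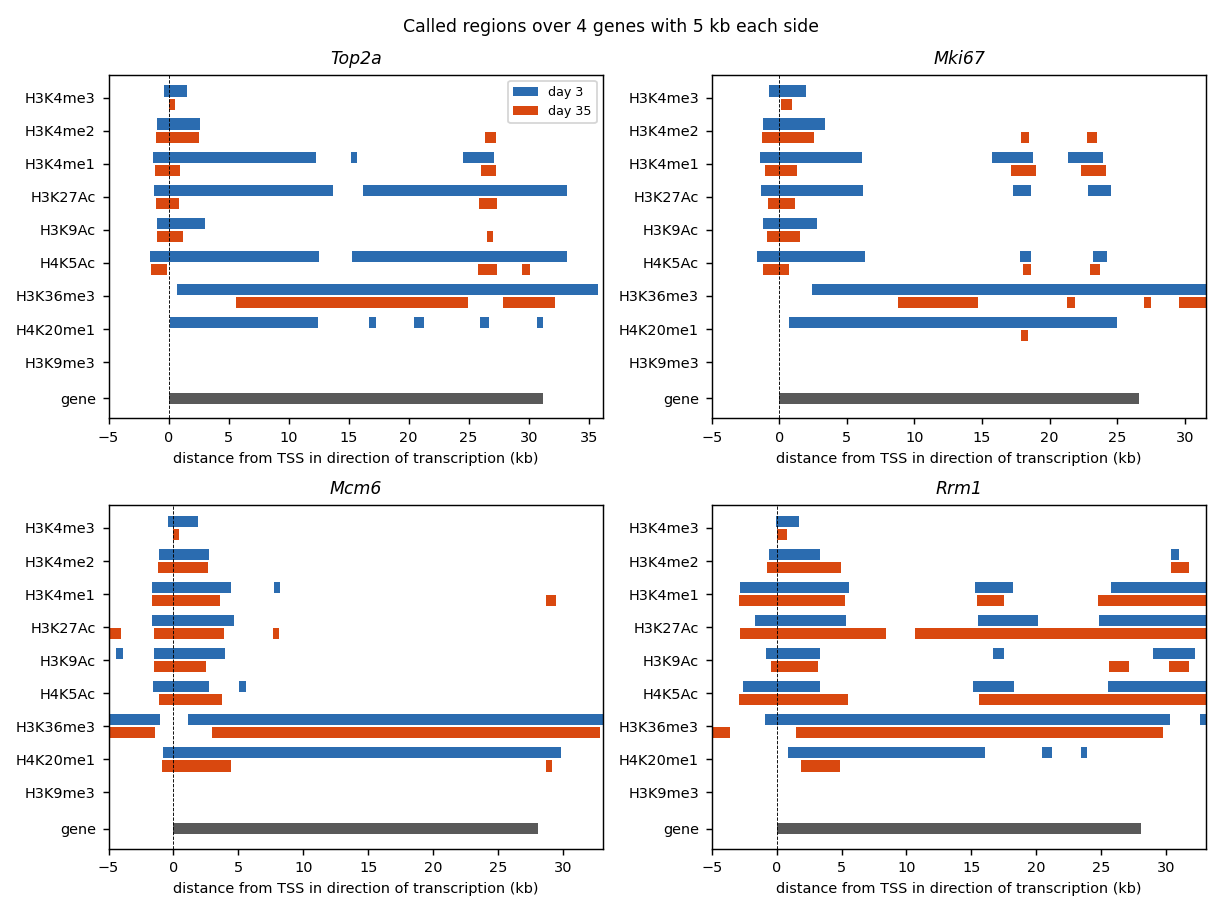
Called regions of the 9 marks over Top2a, Mki67, Mcm6 and Rrm1 with 5 kb each side, drawn by distance from the TSS in the direction of transcription, with 1 bar per region and the gene as a grey bar. At day 35 short bars remain at the Top2a and Mki67 starts (H3K27Ac of 1.93 and 1.94 kb), keeps H3K36me3 along Mcm6, and widens H3K27Ac over Rrm1 from 6.96 to 11.3 kb at the start.

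Other genes of the same pathways were measured from lists of genes that are not members. Of 37 other replication genes, 28 were lower in H4K20me1, 22 in H3K36me3 and 12 in H3K27Ac, with 6 higher in H3K27Ac. The shares of all genes lower were 6.18%, 9.91% and 5.82% in that order. Among the 37, the largest H3K27Ac decreases were at Cdc7 (54.6% to 21.2%), the kinase that fires origins, Pola2 (86.4% to 58.8%) and Pole2 (51.6% to 30.8%). The 6 that were higher were Dut, Gmnn, Cdc45, Gins2, Rfc5 and Tk1, the last from 71.6% to 100%. This count of 6 of 37 lay near the 17.8% of all genes that were higher in H3K27Ac. Of 50 other mitosis genes, 43 were lower in H3K36me3, 25 in H4K20me1 and 23 in H3K27Ac, with Cdca5 and Cks1b higher. Ckap2 (82.2% to 28.4%), Cdca3 (88% to 44.8%) and Ect2 (52.8% to 10.2%) came first in H3K27Ac. H3K4me3 was at the TSS on both days at 14 of the 35 other replication genes and 13 of the 46 other mitosis genes that had it at day 3. Members and these genes overlap in role, so the lists are not independent of each other.

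The 17 regulators of the Rb, E2F and DREAM group differed less. H3K36me3 was lower at 8, H4K20me1 at 7 and H3K27Ac at 2, E2f8 (27% to 8.44%) and Tfdp1 (53.3% to 39.9%). The shares of all genes lower were 9.91%, 6.18% and 5.82% in that order. Among genes with over 10% at day 3 they were 19.5%, 14.7% and 11%. H3K27Ac was higher at 3 of the 17, E2f6, E2f4 and Rbbp4, near the 17.8% of all genes. E2f8 is itself a factor made in S phase, and E2f4 is a subunit of DREAM.

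VDR and RXR sites were near a minority of these genes. A site is a place where peaks of both replicates of an arm overlapped. VDR sites lay within 50 kb of 2 of 36 genes (5.56%) with vehicle, against 5.05% of all genes, and of 5 (13.9%) with 1,25D3, against 11.7%. RXR sites lay near 11 (30.6%) with vehicle, against 19.8%, and near 14 (38.9%) with 1,25D3, against 31.9%. Within 10 kb the RXR counts were 1 with vehicle, against 9.16% of all genes, and 3 with 1,25D3, against 16%, so the order of members and all genes turned with the window. VDR sites lay within 10 kb of 1 and 2 genes, against 2.18% and 5.26%. In single replicates RXR peaks lay near 15 and 15 genes with vehicle, against 31.9% and 22.2% of all genes. With 1,25D3 they lay near 19 and 16, against 42.1% and 34.9%. No site lay inside a member's body.

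For 4 of the 5 genes near a VDR site, the TSS nearest to the site was another gene's. Those near Mcm2 and Mcm7 lay at the starts of Abtb1 and Zfp113, 0.007 and 0.026 kb from the TSS with 1,25D3, and were called with vehicle too. The 3 sites called with 1,25D3 and in neither vehicle replicate were near Cdc6, Aurka and Cenpf. That near Cdc6 lay 0.363 kb from the start of Rara, the retinoic acid receptor alpha gene, with deposited scores of 21.0 and 13.3 in the replicates, and overlapped an RXR site. That near Cenpf lay 78.6 kb from its annotated start in the longest coding transcript, beyond the gene's far end, and also overlapped RXR. That near Aurka lay 21.6 kb from its TSS without RXR.

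RXR stood at the start of 1 member in both arms. At Top2a a site was called at chr11:98885427-98885741 with 1,25D3, 0.081 kb from the TSS, with deposited scores of 11.4 and 11.5, and with vehicle the scores were 13.8 and 11.3. The printed Top2a stretch lies inside this site. Scores from different lists are not known to share a scale, so the arms cannot be compared by them. At Cdt1 a site 0.484 kb upstream was called in both replicates with 1,25D3, and vehicle had a peak there in at least 1 replicate but no shared site. No VDR site lay at either start.

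The remaining RXR sites lay well away from the members' starts. Sites called in both arms lay 26.2 kb upstream of Mcm2, 39.5 kb upstream of Mcm6, 17.2 kb upstream of Foxm1 and 17.2 kb downstream of the Aurkb TSS. That at Mcm5, 19.9 kb upstream, lay 4.01 kb from the start of Hmox1, heme oxygenase 1. Shared sites with 1,25D3 and not with vehicle were called 0.142 kb from the start of Per1, a clock gene near Aurkb, where vehicle had a peak in at least 1 replicate, and 0.006 kb from that of Tha1 near Birc5, where vehicle had none. At Cdk1 the 1 site, 31.4 kb downstream of its TSS, was called with vehicle, and 1,25D3 had a peak there in at least 1 replicate but no shared site. Mki67, Kif11, Rrm1, Rrm2 and the B-type and E-type cyclins had no VDR or RXR site within 50 kb in either arm.

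The label of the cells was checked with marker genes. H3K27Ac was called at the promoters of 7 of 7 osteoblast markers and of 5 of 6 osteocyte markers at both days, with none at Fgf23. H3K4me3 was called at 5 of the 7 osteoblast markers at day 3 and 6 at day 35, with none at Bglap at either day and none at Ibsp at day 3. It was called at 3 of the 6 osteocyte markers at both days, and not at Phex, Mepe or Fgf23. Promoters of the 5 endothelial, 5 adipocyte and 5 myogenic markers had no H3K4me3 at either day, haematopoietic markers 1 of 5 at day 3 and 0 at day 35, and chondrocyte markers 1 of 5 at both. H3K27Ac was called at 3 of 5 haematopoietic promoters at both days (not at Ptprc or Itgam), at 3 and then 2 of 5 endothelial, 2 and then 3 of 5 adipocyte, 2 and then 3 of 5 chondrocyte, and 1 and then 0 of 5 myogenic promoters. Their part in the results above was not tested. The genes lie on 15 chromosomes. The very wide regions of chromosome 10 at day 35 (50 kb or more) lie at least 615 kb from Cdk1, the 1 member on that chromosome.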

How the data were processed

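Lists of called ChIP-seq regions were deposited by the authors for 26 of 28 samples. Per the submitters' processing notes the tools were Bowtie and HOMER and the build mm9. No source used here gives versions, parameters, the use of the inputs or read depth. The value deposited with each region is the authors' own peak score, on a scale the sources do not describe, and served here to rank regions within 1 list. Groups were taken from the labels. The factor replicates are called biological in the series' design text, without saying whether cultures were separate.

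All 937290 regions fell within NCBIM37 chromosomes. Genes were the 22232 protein-coding symbols of GENCODE M1, with the longest record kept where a symbol occurs more than once. The covered share of a window was the percent of its bases in called regions. The promoter was 2 kb each side of the TSS of the transcript with the longest coding sequence, and the body was the rest of the gene, where at least 500 bp were left (18520 genes). A difference beyond 10 percentage points was called. A factor site was an overlap of at least 1 bp between peaks of both replicates, merged. Coordinates are 1-based. No test was made: there is 1 library per mark and day, and peak lists hold no values on a shared scale. Any member could be named. From the other lists, the 3 genes with the largest decrease and those higher in H3K27Ac were named. The members, lists and threshold were chosen with earlier results of these data known. Alternatives were the higher-scoring 50% of each list, merging within 1 kb, other flanks and windows, lists of equal covered length, a 20-point threshold, every TSS, single replicates and a longer promoter. Interval arithmetic was tested on made-up intervals. Python 3.11.15 and NumPy 2.4.6 were used.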

Additional observations from a re-analysis of the deposited data

How the results depend on the processing

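Read depth is unknown, so the number and minimum width of called regions limit what can be seen, and no day difference has a replicate. Of 98 alternative values of 22 counts, 77 stayed within 1.5 times the reported count. Both numbers include the merging of regions closer than 1 kb for each of the 9 marks, which could change no value and so says nothing about stability. Flanks of 20 kb dilute a gene in its surroundings. With them, the members lower were 15 for H3K27Ac (3.25% of all genes), 12 for H4K5Ac (4.46%) and 2 for H3K9Ac (1.56%). They were 1 for H3K4me3 (0.432%), 0 for H3K4me2 (0.126%) and 3 for H3K9me3 (2.5%). H3K27Ac at Pcna was then 3.66 points and at Foxm1 12.3 points higher at day 35, opposite to the reported direction. Without flanks, 15 were lower in H3K9Ac (4.48% of all genes) and 9 in H3K4me2 (0.873%). With a threshold of 20 points, the counts were 15 for H3K27Ac (1.65% of all genes), 12 for H3K4me1 (3.14%) and 10 for H4K5Ac (2.07%). They were 5 for H3K9Ac (0.954%), 1 for H3K4me3 (0.382%) and 1 for H3K4me2 (0.139%). Merging regions closer than 1 kb changed no value, since neighbouring regions of these lists lie at least 2000 bp apart.

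Within 10 kb, VDR sites were near 1 member with vehicle and 2 with 1,25D3, and RXR sites near 1 and 3 (2.18%, 5.26%, 9.16% and 16% of all genes). Within 100 kb, 18 had an RXR site with vehicle (30.5% of all genes). With the higher-scoring 50% of each list, 1 had a VDR site with vehicle (2.66%) and 9 an RXR site with 1,25D3 (18.2%). With peaks of a single replicate, VDR counts were 2 with vehicle (5.17% and 5.87% of all genes) and 5 with 1,25D3 (14% and 12.3%). RXR counts were 15 with vehicle (31.9% and 22.2%), and 19 and 16 with 1,25D3 (42.1% and 34.9%). From the wider promoter, 22 members held the CHR word, 31 CCAAT and 18 an E2F word, against 33.1%, 57.1% and 18.2% of all promoters. No paired analysis was possible because no result comes from a test and the lists hold no values on a shared scale.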
